A study of Schizosaccharomyces pombe with 3 samples.

Results

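Promoters of fission yeast often fire in both directions, so that a coding gene reads one way and a noncoding RNA starts close by and reads the other way on the opposite strand. Such divergent RNAs share a nucleosome-depleted region with the gene, are made by RNA polymerase II (RNAPII), and many are short-lived because termination is coupled to decay by the nuclear exosome. This account covers 194 divergent noncoding RNAs in a table of 7049 *Schizosaccharomyces pombe* genes. Of the 1541 rows with an SPNCRNA identifier, 311 overlapped no coding gene on the other strand and had their 5′ end at most 1000 bp upstream of the 5′ end of an opposite-strand coding gene, the partner. The 194 of them with a mean count of at least 10 were kept, each with its own partner. The remaining 117 fell under that minimum, among them 47 with no count in any library.

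Total RNA, depleted of ribosomal RNA and read by strand, was sequenced from cells of 2 clones of *rpb1-N494D*, called slow, and of 1 wild-type library, their parental strain. N494D is a substitution in Rpb1, the largest subunit of RNAPII, and reduces the elongation rate. The clones, slow #1 and slow #2, were labelled as independent. All 3 strains are h- and lack *fex1* and *fex2* by their labels (fex1_delta, fex2_delta), carry his3-D1, ura4-D18, leu1-32 and ade6-M216, and were grown to mid-log phase at 30°C in supplemented minimal medium. The wild type has 1 library, so that every p-value below takes the spread between the clones, with 1 residual degree of freedom, as the spread of the wild type as well. That spread is not the gene's own alone. edgeR, the main test program, draws it toward the spread of other genes, with 5.246 prior degrees of freedom. In bulk RNA, fewer cells that express a gene and less RNA per cell cannot be told apart.

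The libraries held 40746838 counts in slow #1, 30674459 in slow #2 and 31803128 in the wild type. *ura4* had no count in any library. *fex1* had 427 counts in slow #1, 244 in slow #2 and 549 in the wild type, and *fex2* had 581, 566 and 714 in the same order, so reads were assigned to both genes although the labels give them as deleted in all 3 strains. *his3* had 590, 554 and 511 counts, although his3-D1 is a deletion allele. It is also the partner of SPNCRNA.1437, so a pair with an altered locus is among those described. *rpb1* itself, where the point mutation lies, stood at 788 and 837 CPM, the count scaled to library size, in the slow clones and 792 CPM in the wild type. A gene count cannot show the mutation.

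The set was mixed in name and annotation. RefSeq lists 175 of the RNAs as long noncoding RNAs, 7 as other noncoding RNAs and 3 as small nucleolar RNAs, and 9 identifiers had no match there. The set includes *ter1* (SPNCRNA.214), the RNA template of telomerase, and *meu3* (SPNCRNA.07), first found among RNAs that increase in meiosis. Of the partners, 192 are protein-coding and 2 are pseudogenes. The RNAs had a median length of 783.5 bases, with a range of 66 to 5123, and the median distance between both 5′ ends was 171.5 bp, with a range of 5 to 997. In 52 pairs the ends were at most 100 bp apart. Of the 194 RNAs, 59 overlapped another gene on their own strand, and for these the counts of both genes cannot be fully separated. For 4 RNAs more than 1 coding gene lay within range, and the nearest was taken. The rule looks at ends alone, and in 7 pairs another coding gene on the strand of the RNA lay between both 5′ ends, so that this gene, not the RNA, is the nearest divergent transcript of the partner. Those 7 are counted by coding genes alone. Genes of other kinds are annotated between the ends in further pairs, with 2 at SPNCRNA.664 and *aur1* and 1 at SPNCRNA.920 and *rad25*. The 5′ end of 13 RNAs lay inside another gene on their strand.

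Stretches of genome from 6 of the pairs that the results turn on show what such a shared promoter looks like. Each is written 5′ to 3′ on the strand of the partner, with the bases between both RefSeq 5′ ends in capitals and 20 bases of each transcript in lower case. The RNA therefore begins at the left end of the capitals and reads leftward on the other strand, and the partner begins at their right end and reads rightward.
SPNCRNA.855/spd2 (ASM294v3, chromosome I, 2830235 to 2830385, plus strand): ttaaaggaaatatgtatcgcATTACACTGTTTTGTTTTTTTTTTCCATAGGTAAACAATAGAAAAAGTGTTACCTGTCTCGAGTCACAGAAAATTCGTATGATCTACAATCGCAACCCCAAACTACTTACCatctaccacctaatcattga
SPNCRNA.993/mei2 (ASM294v3, chromosome I, 4515006 to 4515201, minus strand): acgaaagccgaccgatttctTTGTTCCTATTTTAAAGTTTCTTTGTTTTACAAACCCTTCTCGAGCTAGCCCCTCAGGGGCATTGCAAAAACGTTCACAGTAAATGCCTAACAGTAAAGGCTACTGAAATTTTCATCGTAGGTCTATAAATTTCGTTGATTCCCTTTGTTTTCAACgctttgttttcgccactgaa
SPNCRNA.810/SPAC4G9.22 (ASM294v3, chromosome I, 2291519 to 2291692, plus strand): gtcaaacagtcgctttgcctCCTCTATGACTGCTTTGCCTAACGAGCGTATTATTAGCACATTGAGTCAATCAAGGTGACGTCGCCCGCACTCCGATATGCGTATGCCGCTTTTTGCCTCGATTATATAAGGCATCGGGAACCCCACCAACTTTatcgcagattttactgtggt
SPNCRNA.220/dnf1 (ASM294v3, chromosome I, 1015343 to 1015494, minus strand): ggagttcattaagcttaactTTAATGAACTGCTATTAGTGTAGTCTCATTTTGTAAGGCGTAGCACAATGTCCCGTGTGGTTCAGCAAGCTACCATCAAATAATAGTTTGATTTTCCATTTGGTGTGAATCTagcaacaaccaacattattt
SPNCRNA.920/rad25 (ASM294v3, chromosome I, 3584822 to 3584998, minus strand): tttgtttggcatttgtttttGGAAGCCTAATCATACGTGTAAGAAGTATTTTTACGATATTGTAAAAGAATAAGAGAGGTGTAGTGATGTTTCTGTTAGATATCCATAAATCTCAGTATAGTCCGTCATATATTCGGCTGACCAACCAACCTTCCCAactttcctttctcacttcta
SPNCRNA.774/pss1 (ASM294v3, chromosome I, 1920677 to 1920895, minus strand): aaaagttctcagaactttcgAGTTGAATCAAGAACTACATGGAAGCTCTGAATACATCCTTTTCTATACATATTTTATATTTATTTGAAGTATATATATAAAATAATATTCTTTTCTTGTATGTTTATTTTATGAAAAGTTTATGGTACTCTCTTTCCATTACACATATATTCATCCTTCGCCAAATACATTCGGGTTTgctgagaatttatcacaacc

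The capitals span 111 bases between SPNCRNA.855 and *spd2*, 156 at *mei2*, 134 at SPAC4G9.22, 112 at *dnf1*, 137 at *rad25* and 179 at *pss1*. These RefSeq ends are not the ends used for counting. In the deposited table, which follows ASM294v2, the same 5′ ends lay 46, 167, 128, 60, 80 and 9 bp apart, because RefSeq places the starts of many coding genes elsewhere. Over the 185 pairs with both RefSeq ends, the median RefSeq distance was 262 bp and 90 pairs kept their distance within 50 bp. The distance of a pair is thus an annotation, not a measured start site.

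Short motifs were searched on both strands from 250 bases before to 50 bases after each RefSeq start. TATAAA, the TATA box, lay in 93 of 185 windows of the RNAs (50.3%), in 95 of 194 windows of the partners (49%) and in 48.1% of the windows of all 5103 protein-coding genes. TGACGT, the core of the site bound by the stress factor Atf1, lay in 12.4% of the RNA windows, 9.28% of the partner windows and 5.92% of all windows. It occurs once in the stretch printed for SPAC4G9.22. ACGCGT, the MluI cell cycle box, lay in 3.78%, 5.15% and 3.25% in the same order, and CAGTCACA, the HomolD box of ribosomal protein genes, in 1.62%, 2.58% and 2.68%. In the *mei2* promoter the letters TTCTTTGTT, the core of the TR box bound by the mating factor Ste11, stand between both starts. This core was looked up after that sequence had been read, and it lay in 3.78% of the RNA windows, 3.09% of the partner windows and 2% of all windows. Windows of an RNA and its partner overlap in close pairs, so the shares are not independent, and a match is only a run of letters.

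Divergent RNAs were weakly represented beside their partners. Per kilobase of annotated length, the median RNA stood at 3.47 CPM in the slow clones (mean of both) and 3.04 CPM in the wild type, and the median partner at 48.6 and 52.7 CPM per kilobase. In the wild type the median ratio of partner to RNA was 20.6. The RNA exceeded its partner in 11 pairs in the slow clones and in 9 pairs in the wild type. Levels of RNA and partner per kilobase showed almost no relation across 190 pairs in the wild type (Spearman's coefficient 0.03, a description over pairs that share 1 library). The 10 RNAs with the most CPM made up 41.3% of the summed CPM of the set in the wild type.

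The 5 RNAs with the highest level per kilobase were not typical of the set. SPNCRNA.530 (*sno530* in RefSeq), next to *gid4*, had 16.7 and 14.7 CPM in slow #1 and slow #2 and 10.0 CPM in the wild type. SPNCRNA.1483 next to *gid2* had 76.1 and 59.5 CPM in the slow clones and 104 CPM in the wild type, and its row contains the small nucleolar RNA gene SPSNORNA.25 on the same strand. *gid2* and *gid4* encode subunits of a ubiquitin ligase complex that in budding yeast degrades gluconeogenic enzymes. SPNCRNA.1600 next to *csi1* had 37.5 and 42.3 CPM in the slow clones against 49.2 CPM in the wild type, and SPNCRNA.58 (*prl58*) next to the inositol transporter gene *itr2* had 23.3 and 25.6 against 23.2 CPM.

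The fifth was telomerase RNA. *ter1* had 2611 and 1520 counts in slow #1 and slow #2 and 2819 in the wild type, which is 63.1 and 50.7 CPM against 88.1 CPM. Both clones lay below the wild type, with a log2 fold change of −0.63 ± 0.16 (SE, FDR = 0.0442, edgeR). The change was −0.48 in slow #1, which is less than 1.5-fold, and −0.80 in slow #2. The row overlaps the coding gene SPAC16A10.03c on its strand, so the counts of both genes cannot be fully separated.

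The first comparison asks whether slow elongation changed the level of divergent RNAs. At the study's thresholds, an adjusted p (FDR) under 0.01 and more than 1.5-fold, no RNA was higher and none was lower in the slow clones by edgeR's quasi-likelihood test, where 0.312% of the 6418 genes tested were higher and 0.39% lower. The lowest FDR among the 194 was 0.0109. Without adjustment, 37 RNAs were higher at p under 0.05 and 19 lower, against 17.5% and 17.9% of all genes, so 19.1% of the RNAs passed upward and 9.79% downward. DESeq2 at the same thresholds called 4 RNAs higher (SPNCRNA.621, SPNCRNA.679, SPNCRNA.774 and SPNCRNA.920) and 4 lower (SPNCRNA.877, SPNCRNA.1297, SPNCRNA.1432 and SPNCRNA.1696), where it called 4.84% of all genes higher and 3.56% lower.

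At an FDR under 0.05, 12 RNAs rose and 9 fell by edgeR. That is 6.19% and 4.64% of the set, beside 6.79% of all genes called higher and 5.59% called lower, so the shares were near the background. Larger but less certain changes were more frequent. Both clones stood more than 1.5-fold above the wild type for 38 RNAs (19.6%), where 9.08% of all genes did, and more than 1.5-fold below it for 18 RNAs (9.28%), where 5.75% did. Both shares were higher than over all genes, but this was not particular to divergent RNAs. Among SPNCRNA antisense to a coding gene the shares were 14% above and 4.8% below. Among SPNCRNA of neither kind they were 22.7% and 18.8%, both higher than in the divergent set. The divergent RNAs also had fewer counts, with a median mean count of 82.8 against 2347 over all genes tested. The median SE of the log2 fold change was 0.51 for the 67 RNAs with a mean count under 50 and 0.21 for the 53 with at least 200. The part of low counts in these shares was not tested.

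The centre of the distribution was shifted slightly upward. The median log2 fold change of the 194 RNAs was 0.21, with 0.20 in slow #1 and 0.22 in slow #2, beside 0.01 over all genes tested, and 120 of the RNAs (61.9%) lay above 0. The shift was not particular to divergent RNAs. The 895 SPNCRNA antisense to a coding gene had a median of 0.16, with 67.3% above 0, and the 128 SPNCRNA of neither kind had a median of 0.21, with 60.9% above 0. The partners had a median of −0.06, beside −0.03 over all coding genes tested. Scaling to *nda2*, *act1* and *fba1* in place of all genes moved the median of all genes to −0.18 and that of the RNAs to 0.03, so that the RNAs lay above the median gene under both scalings and close to 0 under the second.

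**Figure D1:**
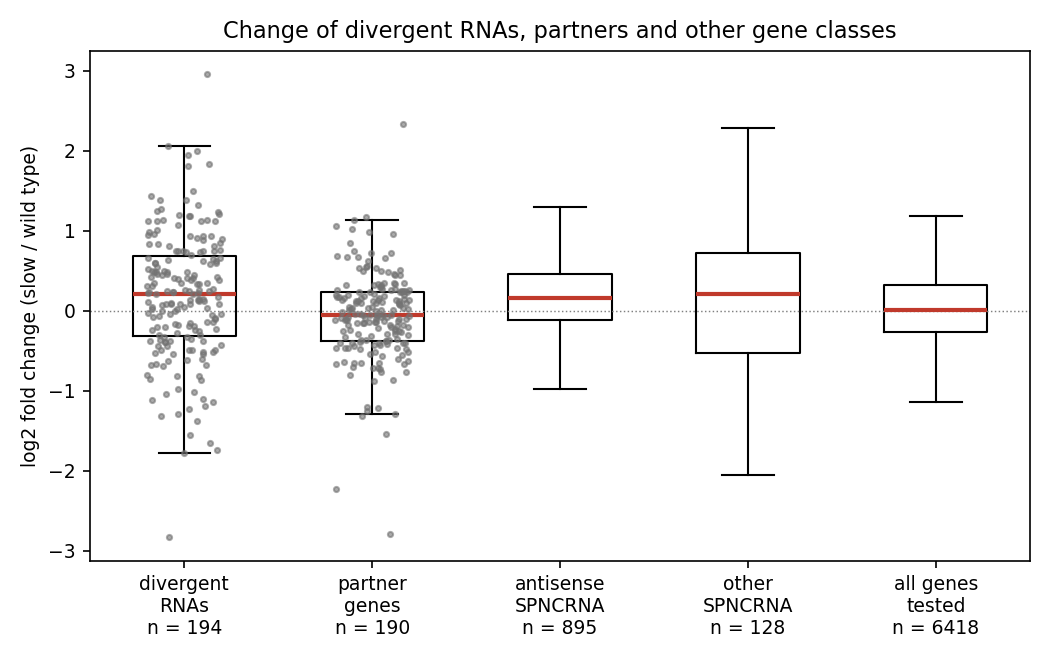
The log2 fold change of slow over wild type (vertical axis) is drawn for divergent RNAs, partner genes, antisense SPNCRNA, other SPNCRNA and all genes tested, with boxes from the lower to the upper quartile, red lines at the medians, whiskers to at most 1.5 box heights and points for single divergent RNAs and partners. The medians of the 3 noncoding classes are 0.21, 0.16 and 0.21, those of the partners and of all genes −0.06 and 0.01.

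The median was higher among RNAs that stand alone than among those that overlap a neighbour. The 135 RNAs with no other gene on their strand had a median log2 fold change of 0.26, with 11 higher and 4 lower at an FDR under 0.05. For the 59 that overlap a gene on their strand the median was 0.09, with 1 higher and 5 lower. By length, the median was 0.26 in 65 RNAs under 600 bases, 0.21 in 77 RNAs of 600 to 1200 bases and 0.08 in 52 longer ones. The interquartile ranges overlapped widely, at −0.14 to 0.76 for the shortest and −0.40 to 0.63 for the longest RNAs, and no test of these differences was run.

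The RNAs described next were chosen for an FDR under 0.05 and for being past 1.5-fold in both clones, so that both clones stand apart from the wild type by that choice. SPNCRNA.855 had 97 and 55 counts in slow #1 and slow #2 and 16 in the wild type, a log2 fold change of 2.06 ± 0.45 (SE, FDR = 0.0326, edgeR). SPNCRNA.220 had 79 and 56 counts against 15 (2.00 ± 0.43, FDR = 0.0326). They start beside *spd2*, whose product belongs to a family of ribonucleotide reductase inhibitors, and *dnf1*, which encodes a P-type ATPase, and both rest on few wild-type reads.

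SPNCRNA.920 and SPNCRNA.679 rose with far more reads behind them. SPNCRNA.920, beside the 14-3-3 protein gene *rad25*, had 24.3 and 28.0 CPM in the slow clones and 9.66 CPM in the wild type (log2 fold change 1.44 ± 0.19, FDR = 0.0121, edgeR). SPNCRNA.679, beside *puf5*, which encodes a Pumilio-type RNA-binding protein, had 29.3 and 33.5 CPM against 12.5 CPM (1.32 ± 0.18, FDR = 0.0122). The 3′ part of SPNCRNA.920 overlaps *mnr2* on the same strand, and *mnr2* had a log2 fold change of −0.38 ± 0.12 (FDR = 0.0777).

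The other large increases were of similar size. SPNCRNA.774, beside *pss1*, a heat shock protein gene, had 6.93 and 7.60 CPM in the slow clones and 2.78 CPM in the wild type (log2 fold change 1.38 ± 0.26, FDR = 0.024, edgeR). SPNCRNA.989, beside the aldehyde dehydrogenase gene *atd1*, had 6.62 and 6.90 CPM against 2.84 CPM (1.25 ± 0.25, FDR = 0.0289). SPNCRNA.810, beside the uncharacterized gene SPAC4G9.22, had 3.65 and 4.03 CPM against 1.66 CPM (1.21 ± 0.31, FDR = 0.0484), and SPNCRNA.993, beside *mei2*, had 7.61 and 8.27 CPM against 3.59 CPM (1.14 ± 0.24, FDR = 0.0312). Mei2 is an RNA-binding protein that switches cells into meiosis.

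The RNAs that fell included the largest single change past an FDR of 0.05. SPNCRNA.877, beside the phospholipase gene *plb2*, had 18 and 16 counts in slow #1 and slow #2 and 110 in the wild type (log2 fold change −2.83 ± 0.37, SE, FDR = 0.0117, edgeR). *plb2* itself had 179 and 196 CPM in the slow clones and 276 CPM in the wild type (−0.56 ± 0.13, FDR = 0.0366), a change of less than 1.5-fold. Both genes of this pair were lower in both clones. The coding gene SPAC1786.04, on the strand of the RNA, lies between their starts, and it had too few reads to be tested (10 and 4 counts in the slow clones and 4 in the wild type).

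SPNCRNA.1696 (*nam3* in RefSeq), near the end of chromosome II beside the glutamine amidotransferase family gene SPBPB2B2.05, had 168 and 151 counts in the slow clones and 495 in the wild type, in a row whose 5′ end lies inside SPNCRNA.532 on the same strand (log2 fold change −1.77 ± 0.22, FDR = 0.0109, edgeR). SPNCRNA.1432, beside the histone H3 gene *hht2*, had 108 and 77 counts against 278 (−1.75 ± 0.24, FDR = 0.0127). This pair is 1 of the 7 with a coding gene in between. The 5′ end of SPNCRNA.1432 lies inside the histone H4 gene *hhf2*, the divergent neighbour of *hht2*, on the same strand, and *hhf2* was at 141 and 146 CPM in the slow clones and 149 CPM in the wild type (−0.05 ± 0.12, FDR = 0.774). *hhf2* thus stood within its error while the RNA fell, although the counts of both cannot be fully separated where they overlap.

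The other decreases were smaller. SPNCRNA.1674, which overlaps 3 other genes on its strand, had 26 and 16 counts in the slow clones and 59 in the wild type, and SPNCRNA.1308 had 30 and 36 against 89. SPNCRNA.664 had 69 and 38 counts against 118. Their log2 fold changes were −1.65 ± 0.41, −1.56 ± 0.40 and −1.31 ± 0.32 (SE), with FDRs of 0.0435, 0.0492 and 0.0435 by edgeR. Their partners are *cnp3*, which encodes a centromere protein, the amino acid permease gene SPBC359.01 and *aur1*, which encodes inositol phosphorylceramide synthase. SPNCRNA.1297, beside SPCC569.06, had 220 and 187 counts in the slow clones and 421 in the wild type (−1.19 ± 0.21, FDR = 0.0224), and SPNCRNA.431, beside the phosphatase gene *pph3*, had 122 and 95 against 210 (−1.10 ± 0.25, FDR = 0.0359). SPNCRNA.1297 overlaps SPCC569.05c on its strand, which had a log2 fold change of −0.07 ± 0.12 (FDR = 0.721).

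**Figure D2:**
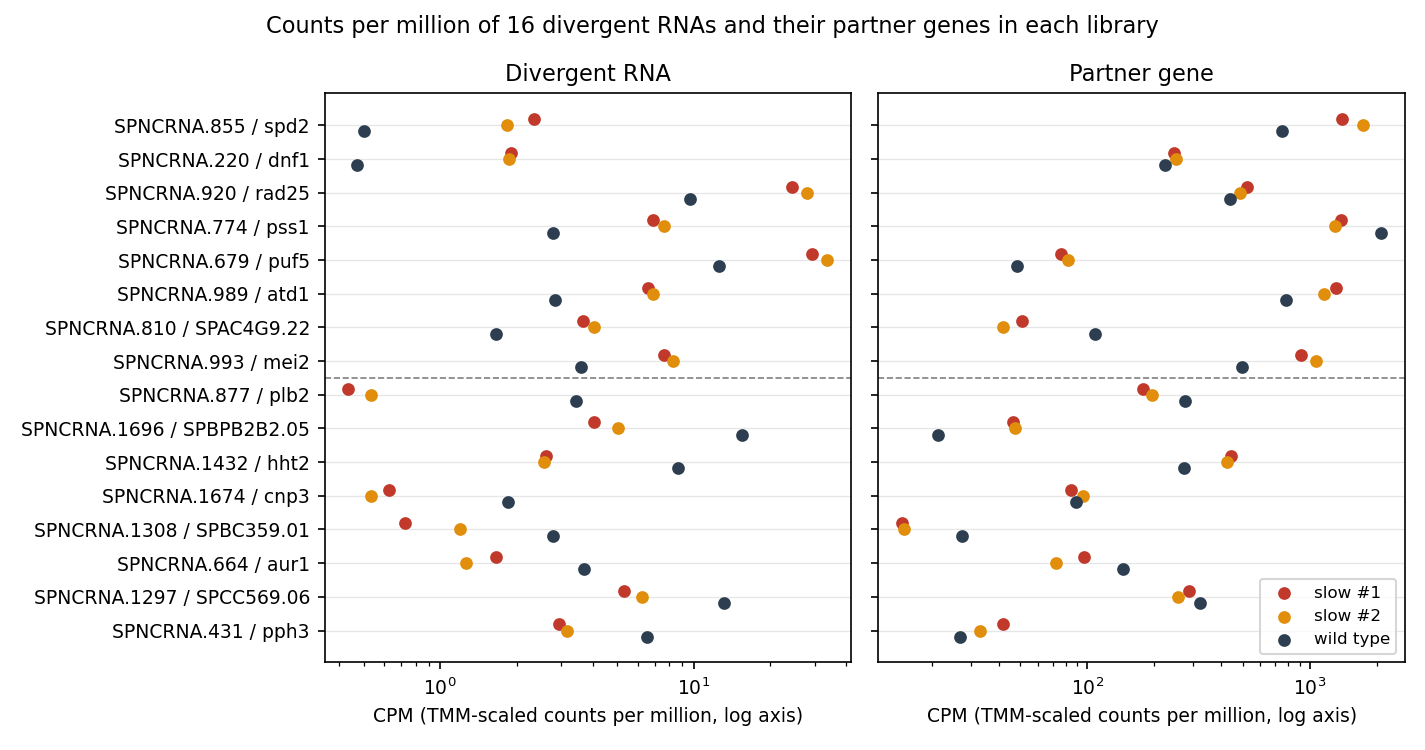
CPM (TMM-scaled, log axis) of the 8 divergent RNAs with the largest increase (above the dashed line) and the 8 with the largest decrease (below it) are shown at left and of their partner genes at right, with 1 point each for slow #1, slow #2 and the wild type. The RNAs were chosen with both slow points on 1 side of the wild type. Partners such as *cnp3* lie within the clones' spread and others, such as *hht2*, lie on the side opposite to their RNA.

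The second comparison asks whether the partner genes changed. Of 190 partners with enough counts, none was higher and 3 (1.58%) were lower by edgeR at an FDR under 0.01 and 1.5-fold, beside 0.312% and 0.39% of all genes. At an unadjusted p under 0.05, 25 were higher (13.2%, against 17.5% of all genes) and 50 lower (26.3%, against 17.9%). DESeq2 called 15 higher (7.89%, against 4.84%) and 16 lower (8.42%, against 3.56%). Over coding genes alone, 16% were higher and 20.5% lower at the unadjusted p by edgeR. DESeq2 called 4.92% of coding genes higher and 4.34% lower. *wwm3* had 18.1 and 16.1 CPM in the slow clones and 119 CPM in the wild type (log2 fold change −2.79 ± 0.13, SE, FDR = 0.0028, edgeR). *pyp2*, which encodes a tyrosine phosphatase of the stress kinase pathway, had 17.8 and 18.5 CPM against 52.8 CPM (−1.54 ± 0.14, FDR = 0.00596), and the amino acid permease gene *aat1* had 77.1 and 84.3 CPM against 197 CPM (−1.29 ± 0.12, FDR = 0.00596). With RLE in place of TMM scaling edgeR called none of these 3 and no gene of the whole table, where the lowest FDR was 0.0102 and 2205 genes had an unadjusted p under 0.05.

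The RNAs next to these 3 genes had few reads and none was called. SPNCRNA.1326, beside *wwm3*, had 14 and 9 counts in the slow clones and 11 in the wild type (log2 fold change −0.10 ± 0.66). SPNCRNA.1058, beside *pyp2*, had 30 and 29 against 54 (−1.01 ± 0.41), and SPNCRNA.292, beside *aat1*, had 27 and 14 against 32 (−0.81 ± 0.48). Their FDRs were 0.934, 0.133 and 0.278 by edgeR. The estimates of SPNCRNA.1058 and SPNCRNA.292 lay within 2 SE of their partner's change, and that of SPNCRNA.1326 did not.

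At an FDR under 0.05 and 1.5-fold, 14 partners rose and 22 fell, which is 7.37% and 11.6% of those tested, beside 6.79% of all genes called higher and 5.59% called lower. Over coding genes alone, 6.17% were called higher and 6.19% lower. The share of partners that rose was near both backgrounds and the share that fell was above both. The higher ones included the gluconate transporter gene *ght3*, with a log2 fold change of 2.33 (FDR = 0.0105, edgeR), the *ste7* gene of an arrestin-like protein used in mating (1.02, FDR = 0.0145) and the MAP kinase gene *spk1* (0.67, FDR = 0.0269). The lower ones included the transporter genes *vht1* for vitamin H (−1.25, FDR = 0.0109), *fur4* for uracil (−0.66, FDR = 0.0344) and *ght8* for hexoses (−0.87, FDR = 0.0171). These 6 were picked from the 36 after their values had been seen. *eft201* and *hht2*, also among the 36, have near-identical copies elsewhere in the genome, so their counts are uncertain.

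The third comparison relates each RNA to its partner. Over the 190 pairs with both genes tested, the log2 fold changes of RNA and partner showed almost no relation, with Pearson's r = −0.03 and a Spearman coefficient of −0.02, and 94 pairs (49.5%) changed in the same direction. In slow #1 alone r was −0.02 and in slow #2 alone −0.02, and over the 183 pairs with no coding gene between both starts it was −0.04. By mean count of the RNA, r was −0.11 at 10 to 50 (66 pairs), 0.08 at 50 to 200 (72 pairs) and −0.05 above (52 pairs). The share in the same direction was 45.5%, 41.7% and 65.4% in that order. The changes of the RNAs had a median SE of 0.33, and its part in these values was not tested. Pairs share the libraries, above all the 1 wild type, so these values describe the pairs and carry no p. Pairs of coding genes that start head to head within 1000 bp had r = 0.17 and a Spearman coefficient of 0.13 over 449 pairs, with 53.9% in the same direction, and neighbours on the same strand within that distance had r = 0.06 over 1950 pairs.

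Among the 190 pairs, 12 RNAs rose at an FDR under 0.05 and 1.5-fold, and of their partners edgeR called 3 higher, 1 lower and 8 in neither direction. Of the partners of the 9 RNAs that fell, 2 rose, 2 fell and 5 were not called. Both genes were therefore called in 8 pairs, 5 in the same and 3 in opposite directions. In 28 further pairs only the partner was called, and in 141 neither was.

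**Figure D3:**
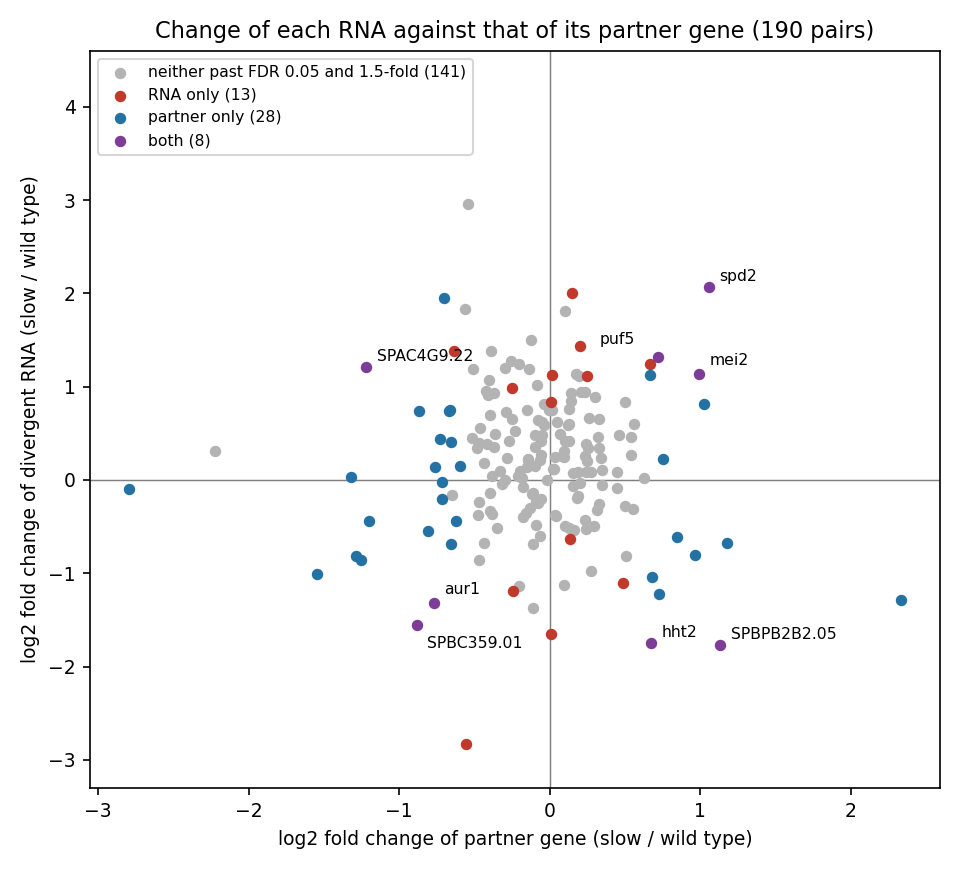
Each of the 190 points is a pair, with the log2 fold change (slow over wild type) of the partner gene on the horizontal and of its divergent RNA on the vertical axis, coloured by whether RNA, partner, both or neither passed an FDR of 0.05 and 1.5-fold. The cloud shows no slope (r = −0.03), and the 8 purple pairs, labelled by partner, occupy all 4 quadrants.

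In 3 pairs both genes rose. *spd2* had 1396 and 1745 CPM in the slow clones and 754 CPM in the wild type (log2 fold change 1.06 ± 0.22, FDR = 0.0293, edgeR), beside the 2.06 of SPNCRNA.855. *mei2* had 912 and 1063 CPM against 497 CPM (0.99 ± 0.18, FDR = 0.023), beside the 1.14 of SPNCRNA.993. *puf5* had 76.0 and 82.3 CPM against 48.1 CPM (0.72 ± 0.13, FDR = 0.0222), beside the 1.32 of SPNCRNA.679. In all 3 the log2 fold change of the RNA was the larger. The choice of pairs with both genes called favours this, since the RNAs have larger SEs and need a larger change to be called. At *mei2* the difference lay within the errors. Per kilobase, the RNA was far rarer than the gene in the slow clones at *spd2* (3.90 against 1533 CPM per kilobase) and *mei2* (9.77 against 245), and close to it at *puf5*.

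In 2 pairs both genes fell. SPBC359.01 had 610 and 450 counts in the slow clones and 876 in the wild type (log2 fold change −0.88 ± 0.16, FDR = 0.0224, edgeR), and *aur1* had 97.1 and 72.0 CPM against 144 CPM (−0.77 ± 0.18, FDR = 0.0404). Their RNAs, SPNCRNA.1308 and SPNCRNA.664, fell by more, which the choice of pairs with both genes called favours here as well.

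In the 3 opposite pairs the sign differed in both clones. SPBPB2B2.05 had 46.3 and 47.5 CPM in the slow clones and 21.4 CPM in the wild type (log2 fold change 1.13 ± 0.14, FDR = 0.0109, edgeR), while SPNCRNA.1696 fell. *hht2* had 444 and 423 CPM against 272 CPM (0.67 ± 0.14, FDR = 0.0288), while SPNCRNA.1432, beyond *hhf2*, fell. SPAC4G9.22 had 50.7 and 41.9 CPM against 108 CPM (−1.22 ± 0.14, FDR = 0.0105), while SPNCRNA.810 rose. The log2 fold change of the RNA minus that of the gene was −2.91 at SPBPB2B2.05, −2.42 at *hht2* and 2.43 at SPAC4G9.22.

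Several of the RNAs with the largest changes had partners that edgeR did not call at an FDR under 0.05. The partner *dnf1* had 246 and 250 CPM in the slow clones and 224 CPM in the wild type (log2 fold change 0.15 ± 0.12, FDR = 0.425, edgeR) beside the rise of SPNCRNA.220. *rad25* had 524 and 484 CPM against 439 CPM (0.20 ± 0.14, FDR = 0.358), and *cnp3* had 84.7 and 95.3 CPM against 89.3 CPM (0.01 ± 0.13, FDR = 0.962). *pph3* and *pss1* moved against their RNAs in both clones. *pph3* had a log2 fold change of 0.48, with 0.64 in slow #1 and 0.30 in slow #2, while SPNCRNA.431 fell. *pss1* had 1387 and 1300 CPM in the slow clones and 2087 CPM in the wild type (−0.64 ± 0.18, FDR = 0.0601, edgeR), while its RNA was higher. DESeq2 called *pss1* lower at the study's thresholds (FDR = 0.00375). DESeq2 also called *atd1*, the partner of SPNCRNA.989, higher (0.66, FDR = 0.00395), where edgeR gave 0.66 ± 0.18 and an FDR of 0.0582. Neither tool called *dnf1*, *rad25* or *cnp3*.

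The change of the RNAs did not follow the distance between the 5′ ends in 1 direction. The median log2 fold change of the RNAs was 0.22 for the 52 at most 100 bp from the partner, 0.38 for the 69 at 101 to 300 bp and 0.08 for the 73 farther away. The correlation of RNA and partner was r = 0.20 in the nearest class (52 pairs), −0.29 in the middle class (68 pairs) and 0.03 in the farthest (70 pairs). The middle value was −0.26 in slow #1 and −0.28 in slow #2, and both clones share the wild type. Head-to-head coding pairs gave 0.06, 0.12 and 0.20 over the same 3 classes, so the order of the classes differed between both kinds of pair. All classes use the deposited ends. With RefSeq ends some pairs would change class, such as *spd2* (46 against 112 bp) and *pss1* (9 against 180 bp). How far the class values depend on the annotation was not tested.

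**Figure D4:**
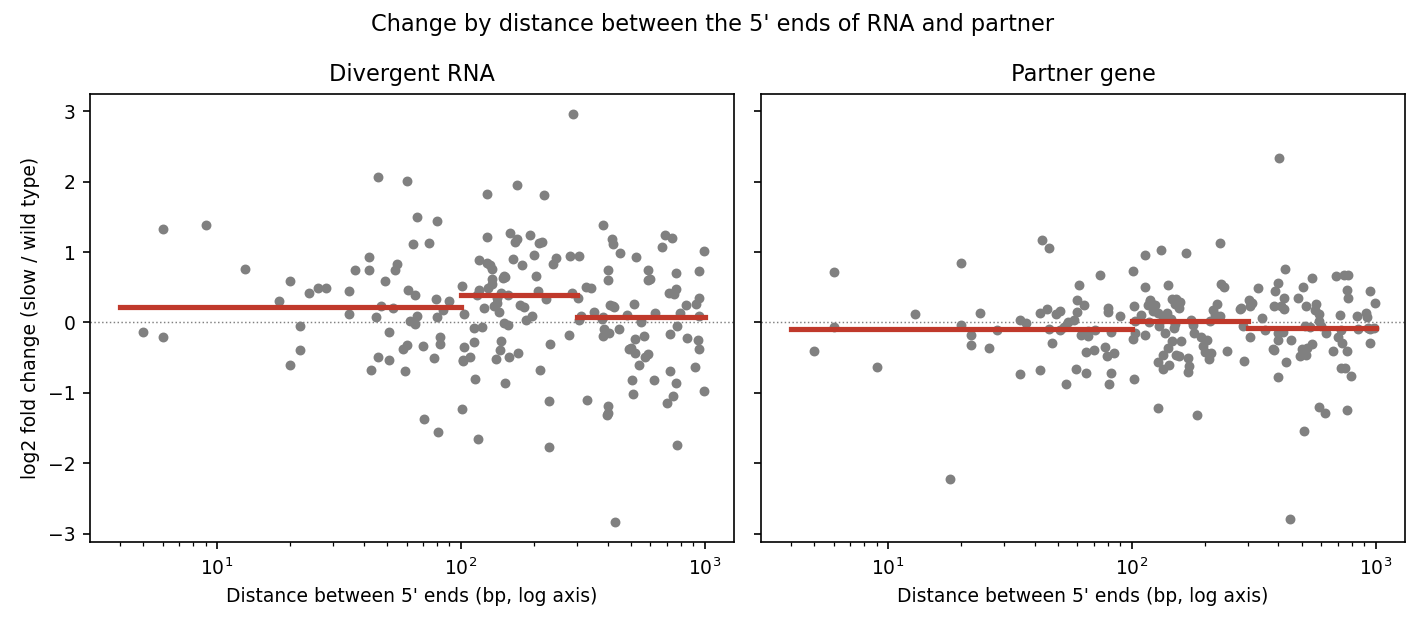
The log2 fold change (slow over wild type) of each divergent RNA, at left, and each partner gene, at right, is plotted against the distance in bp between their 5′ ends on a log axis, with red lines at the medians of the classes 1 to 100, 101 to 300 and 301 to 1000 bp. The RNA medians are 0.22, 0.38 and 0.08, and the points scatter over several log2 units in each class.

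In the 3 closest pairs, the annotated ends lay 5 bp (SPNCRNA.1369 and *swd3*), 6 bp (SPNCRNA.679 and *puf5*) and 6 bp (SPNCRNA.1431 and SPBC27B12.12c) apart. SPNCRNA.1369 had 43.2 and 39.3 CPM in the slow clones and 45.5 CPM in the wild type, and *swd3*, a gene of the Set1 histone methyltransferase complex, had 82.9 and 71.5 CPM against 102 CPM. Their log2 fold changes were −0.14 ± 0.14 (FDR = 0.492, edgeR) and −0.40 ± 0.13 (FDR = 0.0884). SPNCRNA.1431 had 12.4 and 8.77 CPM against 12.3 CPM and its partner, a magnesium transporter gene, 513 and 563 CPM against 560 CPM, with the wild type between the clones for both genes. By edgeR at an FDR under 0.05 both genes were called in the *puf5* pair and neither gene in the other pairs, and differences between pairs were not tested.

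The rule's edges were close calls for some rows. The farthest RNAs inside it were SPNCRNA.217 at 990 bp (log2 fold change 1.02) and SPNCRNA.963 at 997 bp (−0.98), and the nearest outside were SPNCRNA.1157 at 1011 bp (−0.94) and SPNCRNA.1605 at 1033 bp (0.77). At the count minimum, SPNCRNA.941 had 9, 10 and 11 counts in slow #1, slow #2 and the wild type and SPNCRNA.385 had 17, 9 and 6, while SPNCRNA.351 with 8, 16 and 4 and SPNCRNA.1260 with 11, 9 and 8 fell below it. The divergent RNA *rse1*, whose 5′ end lies 2583 bp from that of *ste11*, was outside the rule. It had 752 and 829 CPM in the slow clones and 389 CPM in the wild type (log2 fold change 1.02 ± 0.16, FDR = 0.0174, edgeR), and *ste11*, which encodes the factor that drives mating genes, had 363 and 330 CPM against 184 CPM (0.91 ± 0.14, FDR = 0.0161).

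Genes whose products terminate, repress or degrade such RNAs were read in the same libraries. Of 18 genes of the nuclear exosome and its cofactors, 3 fell and none rose at an FDR under 0.05 and 1.5-fold, where 5.59% of all genes fell and 6.79% rose, with a median log2 fold change of −0.25 beside 0.01 over all genes. At an unadjusted p under 0.05, none of the 18 was higher and 8 were lower, where 17.5% of all genes were higher and 17.9% lower. DESeq2 at an FDR under 0.01 called none higher and 3 lower, where it called 4.84% and 3.56% of all genes. The 3 that fell by edgeR were the exosome genes *rrp46* (−1.08 ± 0.19, FDR = 0.0221, edgeR) and *dis3*, a nuclease of the complex (−0.66 ± 0.12, FDR = 0.0246), and *mmi1*, which encodes the protein that marks meiotic transcripts for decay (−0.63 ± 0.11, FDR = 0.0224). None of 18 genes for 3′ end processing and termination (median −0.02) was called in either direction by edgeR or DESeq2, and at an unadjusted p under 0.05 edgeR had 1 higher and 5 lower, beside the same shares of 17.5% and 17.9% of all genes. None of 21 genes for chromatin repression (median −0.05) was called by either tool or passed an unadjusted p of 0.05. Of 10 genes of cytoplasmic decay, *lsm1* rose (0.69, FDR = 0.0486) and none fell by edgeR or DESeq2, with 2 higher (*lsm1* and *pat1*) and 1 lower at an unadjusted p under 0.05. Whether the exosome genes bear on the divergent RNAs was not tested.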

How the data were processed

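Reads were trimmed by the authors with Trimmomatic 0.36, aligned to ASM294v2 with STAR 2.5.1 and summarized per gene with featureCounts, by strand and as read pairs. The deposited values are raw counts per gene, not normalized, 1 column per library, and 0 other per-sample columns were present. The authors' own test (DESeq2 1.24) was not used here. Gene lengths, deposited as another kind of value, gave CPM per kilobase.

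edgeR 4.0.16 in R 4.3.3 tested 6418 genes that passed its expression filter (at least 10 counts, and 15 over all libraries), with TMM scaling, the quasi-likelihood test and Benjamini-Hochberg adjustment. Each clone's own change was taken from log2 CPM after adding a prior count of 2. DESeq2 1.42.0 was an alternative. On simulated counts of this comparison (6377 genes), edgeR called 65 of 89 genes changed 2-fold and 104 of 110 changed 4-fold at an FDR under 0.01, with 1 false call. The simulated counts were drawn at the spread that edgeR estimated for each gene. Whether they hold all the spread of the real counts was not tested. In the real counts edgeR called 20 genes higher and 25 lower, where 2272 genes had an unadjusted p under 0.05. The simulated calls therefore do not give the share of real changes that was caught. They cover genes of all levels. The median mean count was 2347 over all genes tested and 82.8 for the divergent RNAs. How often changes of these sizes are called at the counts of the divergent RNAs was not tested. Members, lists and alternatives were chosen with earlier results of these data known.

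Named are called RNAs and partners, the 8 largest increases and 8 largest decreases at an FDR under 0.05 (past 1.5-fold in both clones, mean count at least 30), pairs with both genes called, the 5 highest RNAs per kilobase, the 3 closest pairs, rows at the thresholds, and *rse1* with *ste11*. Names were matched to RefSeq (ASM294v3) for 6844 of 7049 identifiers, and sequences come from that assembly by its own annotation. Promoter windows of RefSeq were cut from the genome. Nothing was read from the supplementary files of the paper. The partner of *ter1* is not reported here.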

Additional observations from a re-analysis of the deposited data

How the results depend on the processing

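No paired analysis was possible because the wild type has 1 library. RNAs called higher and lower numbered 0 and 0, and 2 and 3 without the filter on low counts, 4 and 4 with DESeq2, 12 and 9 at an FDR under 0.05, and 4 and 10 after scaling to *nda2*, *act1* and *fba1*. Partners called higher and lower numbered 0 and 3, and 6 and 7 without the filter, 15 and 16 with DESeq2, 14 and 22 at an FDR under 0.05, and 6 and 32 after scaling to the 3 genes. Called lower were 0 partners with RLE, 1 at most 500 bp apart and 0 for RNAs with a mean count of at least 50. The median log2 fold change of the RNAs was 0.0292 after scaling to the 3 genes, 0.24 within 500 bp, 0.15 at a mean count of at least 50 and 0.26 with no other gene on the strand, and 0.20 to 0.22 when 1 clone was left out. That of the partners was −0.24 after scaling to the 3 genes and −0.10 with no other gene on the RNA's strand, and −0.07 to −0.03 with 1 clone. The correlation was −0.0080 with DESeq2, −0.0539 within 500 bp, 0.0498 at a mean count of at least 50, 0.0570 with no other gene on the strand, −0.0354 without the 7 pairs that have a coding gene between the starts (chosen after seeing the data), and −0.0180 to −0.0155 with 1 clone left out. The share of pairs with the same sign was 45.8% to 48.9% when 1 clone was left out. The causes were not tested. No named RNA or partner was called in opposite directions under 2 settings. Small changes that were not called did switch sign. After scaling to the 3 genes, *prl58* went from 0.07 to −0.11 and *dnf1* from 0.15 to −0.04. Depth limits the RNAs more than the partners, since 67 of 194 RNAs have a mean count under 50.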
